A study of Danio rerio with 32 samples.

Results

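The genes that build glycogen were followed at the transcript level in wild-type and in gys2 knockout zebrafish, where gys2 encodes the liver form of glycogen synthase. The 8 genes were the glycogen synthases gys1 and gys2, the glycogenins gyg1a, gyg1b and gyg2, the branching enzyme gbe1a, the UDP-glucose pyrophosphorylase ugp2b and the phosphoglucomutase pgm1. They were taken by symbol from the deposited count table, and all 8 were found among its 31658 genes. Messenger RNA had been counted at its 3′ ends, with the Lasy-Seq method, in liver and muscle of adult female fish of the AB strain. Each tissue and genotype had 8 libraries, which gave 4 groups (wild-type liver, gys2 knockout liver, wild-type muscle and gys2 knockout muscle) and 32 libraries. Both genotypes shared the AB background, and no treatment was named. The sources used here do not give the position of the gys2 lesion, the number of founder lines or which liver and muscle came from 1 fish, and a 3′ count outside an altered stretch reports only how much transcript is present. The labels number the libraries of a group as biological replicates.

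Glycogen is a branched polymer in which animals store glucose. In mammals, phosphoglucomutase turns glucose 6-phosphate into glucose 1-phosphate, which the pyrophosphorylase combines with uridine triphosphate to make UDP-glucose. Glycogenin puts the first glucose residues on itself as a primer. Glycogen synthase then lengthens the chains and the branching enzyme adds the branch points. Mammals use a separate synthase gene in liver, GYS2, where glycogen buffers blood glucose, and GYS1 in muscle and most other tissues, where it fuels local work.

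Library totals ran from 1514099 to 2366219 counts in wild-type livers, from 2562717 to 15351773 in knockout livers, from 1664493 to 7264469 in wild-type muscle and from 2373329 to 3620243 in knockout muscle, so that depth did not overlap between the genotypes in liver. Marker genes went with the tissue labels: 10 of 10 hepatocyte markers summed to between 21745 and 111216 CPM (counts scaled to library size and its TMM factor) in wild-type livers and to a median of 578 CPM in wild-type muscle, whereas 12 of 12 skeletal muscle markers summed to 45895 to 93842 CPM in wild-type muscle and to 1801 to 2364 CPM in wild-type liver. All levels below are CPM on 1 scale over the 32 libraries. On it the median of the 9438 genes tested in liver was 0.13 higher in knockout than in wild type (log2), against -0.02 on the scale of the liver fit that gave the log2 changes. In these bulk samples, fewer cells of a type and less RNA per cell cannot be told apart.

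The targeted gene gys2 was at its highest in wild-type liver and low in the other 3 groups. In wild-type livers the lowest, median and highest gys2 levels were 2.43, 12.99 and 23.6 CPM, from 6 to 37 counts a library. In knockout livers they were 0.252, 1.14 and 2.98 CPM, from 1 to 19 counts. All 8 knockout livers lay below the wild-type median and 6 of 8 below the lowest wild-type liver. The mean fell from 11.96 ± 7.42 to 1.36 ± 0.943 CPM (SD, n = 8 each), so that the wild-type mean was 8.79 times that of the knockout. On the log2(CPM + 0.5) scale the group means differed by -2.61 (two-sided exact permutation p = 0.0004662, 1 of 5 such tests of levels, where the smallest possible p is 0.0001554).

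The liver fit left gys2 out for its low counts, so it was also tested without a filter. The edgeR quasi-likelihood fit over 29097 liver genes then called gys2, with a log2 change of -3.03 ± 0.43 (SE) and an adjusted p of 3.38e-05. That fit called 99 genes, or 0.34% of those tested. With the filter gys2 was tested once, after wild-type liver 4, the lowest of its group, was left out. It was called there at -3.32 (edgeR adjusted p = 0.000749), in a fit that called 3 of 9773 genes. Leaving out that liver let gys2 through the filter, and only wild-type livers reached the filter's level. This call is therefore not separate support for the difference. Wild-type livers 4, 6 and 7 were the low ones for gys2, at 2.43, 4.30 and 5.99 CPM, and the other 5 stood between 10.05 and 23.6 CPM. Livers 4 and 7 also had the lowest hepatocyte marker sums, at 21903 and 21745 CPM. Liver 6, at 49595 CPM, was above the wild-type median of 40993 CPM. A link between these sums and gys2 was not tested.

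In muscle gys2 transcripts were close to the limit of counting. Wild-type muscle held 0 to 15 counts a library (median 0.348 CPM, highest 2.71 CPM) and knockout muscle 1 to 12 counts (median 0.672 CPM, highest 2.46 CPM). The 3 wild-type libraries with 0 counts (3, 4 and 7) allow a level of up to 0.381, 1.44 and 1.34 CPM, taking 3 counts as the limit, for counting error only. The genotypes overlapped fully (exact permutation p = 0.272). In wild type, liver exceeded muscle by 3.38 on the log2(CPM + 0.5) scale (exact permutation p = 0.0003108, mean 11.96 against 0.780 CPM), and the unfiltered edgeR fit gave a log2 difference of 3.51 ± 0.55 (adjusted p = 2.71e-06, beside 16.6% of all genes called in that fit). Between knockout liver and knockout muscle the gys2 difference was 0.25 (exact permutation p = 0.509; unfiltered edgeR 0.33 ± 0.63, adjusted p = 0.786). Hepatocyte markers in wild-type muscle stood at a median of 1.41% of the wild-type liver median and gys2 at 2.68% of its own. The muscle library with the most hepatocyte marker signal in wild type, library 6 at 5330 CPM, had 2.36 CPM of gys2, and library 5, at 578 CPM of these markers, had 2.71 CPM. Their part in the gys2 counts of muscle was not tested.

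**Figure D1:**
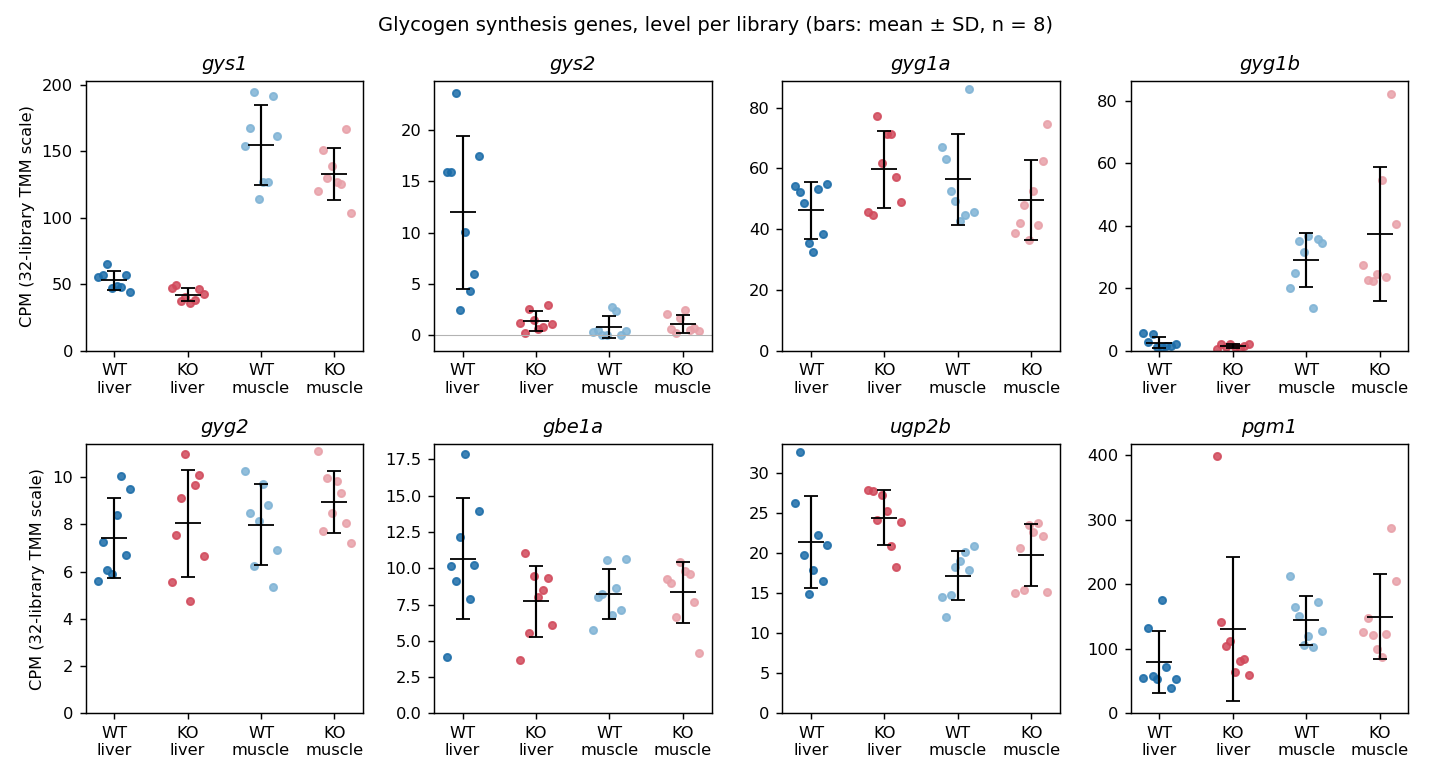
Level of each of the 8 genes in every library (points) in CPM on the 32-library scale, with the mean ± SD of each group (n = 8), for wild-type (WT) and gys2 knockout (KO) liver and muscle. gys2 stood above 10 CPM in 5 of 8 wild-type livers and below 3 CPM in every library of the other 3 groups, while gys1 and gyg1b were higher in muscle.

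The other synthase, gys1, was present in both tissues and highest in muscle. In wild-type muscle its lowest, median and highest levels were 114, 158 and 195 CPM, and in knockout muscle 104, 128 and 167 CPM. In wild-type liver they were 43.9, 52.1 and 65.4 CPM and in knockout liver 35.6, 41.5 and 49.6 CPM. No liver of either genotype reached the lowest muscle library of its genotype, whereas the genotypes overlapped within each tissue on this scale. The share of all genes whose tissues separate in this way was not counted. The order of the means was therefore wild-type muscle (155 ± 30.3 CPM), knockout muscle (133 ± 19.5), wild-type liver (52.9 ± 7.10) and knockout liver (42.1 ± 5.05), with a gap between tissues and, on this 32-library scale, none between genotypes.

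Liver gys1 was lower than muscle gys1 in both genotypes, by a log2 difference of -1.55 ± 0.17 in wild type (edgeR adjusted p = 2.41e-08) and -1.72 ± 0.17 in knockout (edgeR adjusted p = 2.06e-09), each in 8 of 8 libraries. The genotype difference of gys1 in liver did not pass the test over all genes, at -0.49 ± 0.16 (edgeR adjusted p = 0.122; unadjusted p = 0.00462). All 8 knockout livers were below the wild-type median. On the scale of the liver fit, gys1 ran from 39.6 to 55.0 CPM in wild-type and from 27.7 to 38.6 CPM in knockout fish, which do not overlap. On the 32-library scale 5 of 8 knockout livers were below the lowest wild-type liver. The share of all liver genes whose genotypes separate in this way was not counted, so the separation cannot be judged against it. An unadjusted p under 0.05 was reached by 22.4% of all liver genes. DESeq2 called it, at -0.45 (adjusted p = 0.0333), in a fit that called 5.96% of liver genes, and over the alternatives its adjusted p ran from 0.00430 to 0.493. In muscle the difference was -0.22 ± 0.16 (edgeR adjusted p = 0.960), with 7 of 8 knockout libraries below the wild-type median.

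Depth was separate between the liver genotypes. On the 32-library scale the summed markers of cell types had overlapping ranges, but in every list their median was higher in knockout than in wild-type livers. The median of all genes tested in liver was itself 0.13 higher in knockout on this scale (log2). With livers scaled to their totals that median was -0.53, and marker sums were not made on that scale. With every library thinned to the depth of the shallowest, gys1 differed by -0.49 ± 0.17 between liver genotypes (edgeR adjusted p = 0.150). Of the marker lists, all 12 exocrine pancreas genes were detected in both genotypes and summed to 32.7 to 2354 CPM in wild-type and 140 to 4175 CPM in knockout livers. All 6 erythrocyte genes summed to 183 to 1381 and 537 to 1673 CPM, and all 5 cholangiocyte genes to 222 to 628 and 453 to 1612 CPM. The 7 macrophage genes summed to 79.2 to 227 and 139 to 382 CPM, the 10 hepatocyte genes to 21745 to 111216 and 53556 to 136070 CPM and the 12 skeletal muscle genes to 1801 to 2364 and 1903 to 2762 CPM. In wild-type and knockout livers the medians were 193 and 829 CPM for exocrine pancreas and 506 and 941 CPM for erythrocyte genes. They were 369 and 577 CPM for cholangiocyte and 142 and 244 CPM for macrophage genes. For hepatocyte genes they were 40993 and 57737.5 CPM, and for skeletal muscle genes 2055 and 2363 CPM. The hepatocyte ranges overlapped through wild-type liver 5 only. No gene of these lists was at 0 in a whole group, and their part in the liver differences of the 8 genes was not tested.

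Since gys1 and gys2 were counted in the same library, the share of their counts that came from gys2 does not depend on scaling. It gives the balance of counts, not of molecules or enzyme. In wild-type livers gys2 made up 4.90%, 19.5% and 28.5% of the synthase counts (lowest, median, highest) and in knockout livers 0.505%, 2.48% and 6.27%. The mean share was 17.3 ± 8.87% without and 3.13 ± 2.07% with the knockout (n = 8 each), a difference of -14.2 percentage points (two-sided exact permutation p = 0.0004662), and the lowest wild-type share exceeded that of 6 of 8 knockout livers. This test used the same gys2 counts and livers as the test of the gys2 level, so it is not separate support.

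Single libraries fixed this share only loosely. The lowest wild-type liver, number 4, had 7 gys2 counts of 143 (95% Clopper-Pearson interval 1.99% to 9.83%), and the highest knockout liver, number 3, had 19 of 303 (3.82% to 9.62%), so that these intervals overlap. Wild-type liver 8 held 35 of 123 (20.7% to 37.3%). In muscle the share had a median of 0.220% in wild type and 0.421% in knockout and reached 2.096% and 1.90%. Summed, the 2 synthases stood at 49.7 to 88.9 CPM in wild-type livers (median 62.2) and at 36.2 to 49.8 CPM in knockout livers (median 42.8), ranges that touch at 1 library of each genotype.

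**Figure D2:**
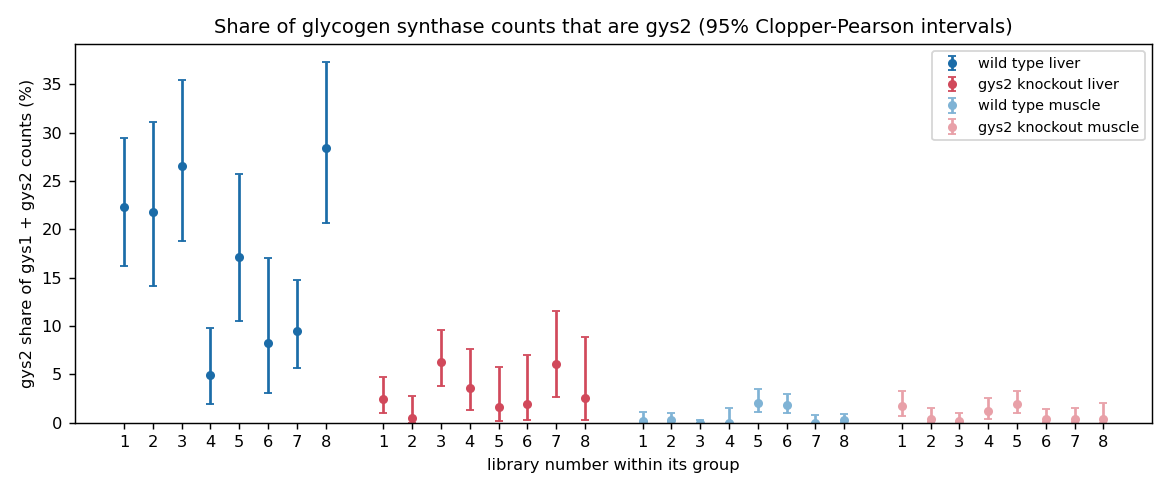
Share of gys1 plus gys2 counts that were gys2, in percent, for each of the 32 libraries, with 95% Clopper-Pearson intervals that cover counting error only. The wild-type livers spread from 4.90% to 28.5%, the knockout livers from 0.505% to 6.27%, and muscle libraries stayed at or below 2.096%.

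The glycogenins prime new glycogen particles. With TMM scaling and all libraries, edgeR called 1 of the 3 between tissues, gyg1b, in both genotypes. Of all genes tested, 33.9% were called between wild-type tissues and 43.4% between knockout tissues. Transcripts of gyg1b were higher in muscle than in liver in both genotypes. Its lowest, median and highest levels were 13.5, 33.1 and 36.8 CPM in wild-type muscle and 22.3, 25.96 and 82.2 CPM in knockout muscle. In wild-type liver they were 1.04, 1.72 and 5.60 CPM, from 2 to 13 counts, and in knockout liver 0.585, 1.41 and 2.22 CPM, from 2 to 10 counts. Every liver lay below every muscle library of its genotype. How many of all genes separate the tissues in this way was not counted, so the separation cannot be judged against that number. The log2 difference of liver against muscle was -3.51 ± 0.33 in wild type (edgeR adjusted p = 7.38e-10) and -4.78 ± 0.35 in knockout (edgeR adjusted p = 8.09e-12).

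What remained of gyg1b in liver amounted to a median of 5.19% of the muscle median in wild type (3.15% to 16.9%) and 5.41% in knockout (2.26% to 8.56%). The summed skeletal muscle markers, all 12 of which were detected in both liver groups, stood in the same livers at 2.56% (2.24% to 2.94%) and 3.95% (3.18% to 4.62%) of the muscle median, and single markers had medians between 2.03% and 17.9%. The part of muscle RNA or of reads from muscle libraries in the liver counts of gyg1b was not tested. For gys1 the same percentages were 32.98% and 32.3%. Between the genotypes liver gyg1b did not differ detectably at this depth (means 2.60 and 1.45 CPM; exact permutation p = 0.131; unfiltered edgeR log2 change -0.83 ± 0.58, adjusted p = 0.501). In muscle the change was 0.36 ± 0.27 (edgeR adjusted p = 0.963), and knockout libraries 7 and 5 were the highest, at 82.2 and 54.5 CPM. Without knockout muscle 7 the change was 0.087 (edgeR adjusted p = 0.960).

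The paralogue gyg1a had overlapping levels in all 4 groups. Its lowest, median and highest levels were 32.4, 50.4 and 54.9 CPM in wild-type liver and 44.5, 59.5 and 77.2 CPM in knockout liver. In muscle they were 42.6, 50.9 and 86.1 CPM without the knockout and 36.4, 45.2 and 74.7 CPM with it. All 4 ranges overlap. With TMM scaling and all libraries, none of the differences between genotypes or tissues passed edgeR. The largest was -0.28 ± 0.18 for liver against muscle in wild type (edgeR adjusted p = 0.267). In liver gyg1a had a change of 0.21 ± 0.18 with the knockout (edgeR adjusted p = 0.474). On the 32-library scale 5 of 8 knockout livers were above the highest wild-type liver. On the scale of the liver fit even the knockout median, 47.8 CPM, was below the highest wild-type liver, 49.5 CPM. The change turned to -0.31 when livers were scaled to their totals, a setting in which the median of all liver genes was -0.53.

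The other glycogenin, gyg2, was counted at 5.60 to 10.04 CPM in wild-type liver and 4.75 to 11.0 CPM in knockout liver, and at 5.35 to 10.3 and 7.21 to 11.1 CPM in wild-type and knockout muscle. Its spread between libraries was close to counting error in 3 of the 4 groups. With TMM scaling no comparison passed edgeR (log2 changes from -0.23 to 0.17 in the fits reported). Of all glycogenin counts, gyg1b made up 31.1 ± 8.49% in wild-type and 36.9 ± 8.82% in knockout muscle, against 4.43 ± 2.74% and 2.19 ± 1.13% in liver. The share of gyg1a was 60.0 ± 8.07% and 52.9 ± 7.23% in muscle and 82.0 ± 2.07% and 86.1 ± 3.48% in liver (n = 8 each). How alike the counted ends of gyg1a and gyg1b are was not examined, so reads could be split between them.

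**Figure D3:**
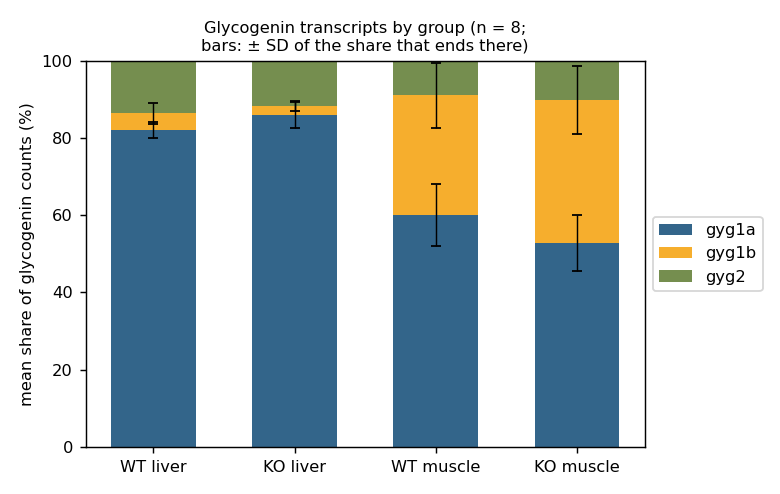
Mean share of the glycogenin counts held by gyg1a, gyg1b and gyg2 in each group (percent, n = 8; error bars are the SD of the gyg1a and of the gyg1b share). gyg1b held 31.1% and 36.9% in wild-type and knockout muscle and 4.43% and 2.19% in the livers.

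The branching enzyme gbe1a, which adds the branch points that make glycogen soluble, was counted at low levels throughout. In wild-type liver its lowest, median and highest levels were 3.88, 10.2 and 17.9 CPM and in knockout liver 3.66, 8.27 and 11.1 CPM. Muscle libraries lay between 5.74 and 10.7 CPM (wild type) and between 4.17 and 10.4 CPM (knockout). The liver change of -0.64 ± 0.29 did not pass (edgeR adjusted p = 0.202; unadjusted p = 0.0386), with 7 of 8 knockout livers below the wild-type median and overlapping ranges. Muscle gave 0.03 ± 0.23 (edgeR adjusted p = 0.997). Between knockout liver and muscle gbe1a differed by -0.20 ± 0.26 (edgeR adjusted p = 0.554). With every library thinned to the shallowest it was called lower in knockout liver, at -0.69 ± 0.28 (edgeR adjusted p = 0.0441), in a fit that called 47.8% of genes.

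The enzyme that makes UDP-glucose, the donor of every glucose unit, did not pass edgeR in any comparison with TMM scaling. Levels of ugp2b were 14.9, 20.4 and 32.6 CPM (lowest, median, highest) in wild-type liver and 18.3, 24.7 and 27.8 CPM in knockout liver. In muscle they were 12.03, 18.02 and 20.9 CPM for wild-type fish and 14.96, 21.3 and 23.7 CPM for knockouts. The 4 ranges overlap, and the edgeR changes were 0.04 ± 0.18 in liver and 0.20 ± 0.18 in muscle (adjusted p = 0.911 and 0.966).

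Phosphoglucomutase, pgm1, which feeds glucose 1-phosphate to UDP-glucose synthesis, varied most between libraries relative to counting error. Its lowest, median and highest levels were 39.4, 56.2 and 176 CPM in wild-type liver and 58.9, 94.7 and 399 CPM in knockout liver. In muscle they were 103, 139 and 213 CPM for wild-type fish and 87.9, 124 and 288 CPM for knockouts. Knockout liver 1 was the highest liver by far, and the next was wild-type liver 5. Each also had the highest hepatocyte marker sum of its genotype in liver, at 136070 and 111216 CPM. A link of these sums to pgm1 was not tested. The wild-type pgm1 median was exceeded in 8 of 8 knockout livers, but 7 of 8 stayed within the wild-type range. The liver change was 0.55 ± 0.36 (edgeR adjusted p = 0.346) and rested on single livers. It was 0.13 without knockout liver 1 and 0.85 without wild-type liver 5, the lowest and highest values with 1 liver left out (edgeR adjusted p = 0.826 and 0.145). Without both, a choice made after seeing the data, it was 0.33 ± 0.23 (edgeR adjusted p = 0.400).

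In wild type, pgm1 was lower in liver than in muscle by -0.85 ± 0.27 (edgeR adjusted p = 0.0132), in 7 of 8 livers against the muscle median. In knockout the difference was -0.26 ± 0.34 (edgeR adjusted p = 0.572). It became -0.74 and passed (edgeR adjusted p = 0.0143) when knockout liver 1 was left out, where the alternatives ran from 0.0143 to 0.907. The fit without that liver called 4789 of 11935 genes, 2447 of them lower in liver. The difference between these tissue contrasts is the interaction below, which did not pass for pgm1 (0.67 ± 0.47, edgeR adjusted p = 0.443; 0.17 without knockout liver 1).

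Counted over the 8 genes, edgeR with its count filter, TMM scaling and all libraries called members between tissues and none between genotypes. Between wild-type liver and muscle edgeR called 3 of 7 tested members, gys1, gyg1b and pgm1, all lower in liver. Of all 10648 genes tested, 33.9% were called and 18.9% were lower. In knockout fish 2 of 7, gys1 and gyg1b, were called, both lower in liver, where 43.4% of 11685 genes were called and 22.2% were lower. Scaled to library totals, all 7 were called lower in knockout liver, in a fit that called 76.9% of all genes. The median log2 difference of the 7 tested members was -0.28 in wild type and -0.23 in knockout, beside 0.01 and -0.15 over all genes. It leaves out gys2, which these fits did not test.

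Between the genotypes, edgeR called 0 of 6 tested members in liver, where 0.0742% of 9438 genes were called, with 2 (gys1 and gbe1a) at an unadjusted p under 0.05, a level that 22.4% of all liver genes reached. DESeq2 called 1 of 5 members with an adjusted p (gys1), beside 5.96% of genes, and limma-voom 0 of 6, beside 2.28%. Scaled to library totals, edgeR called 2, gys1 at -0.97 and gbe1a at -1.16 (adjusted p = 0.00430 and 0.00895), beside 33.4% of genes. In muscle edgeR called 0 of 7 members and 0% of 12415 genes, with 0 members at an unadjusted p under 0.05, which 4.74% of genes reached. DESeq2 called 0 of 8 members (0.00678% of genes) and limma-voom 0 of 7 (0% of genes). The median change of the tested members was -0.003 in liver and 0.05 in muscle, beside -0.02 and 0.004 over all genes. The liver median covers 6 members, without gys2 and gyg1b, and the muscle median covers 7, without gys2.

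**Figure D4:**
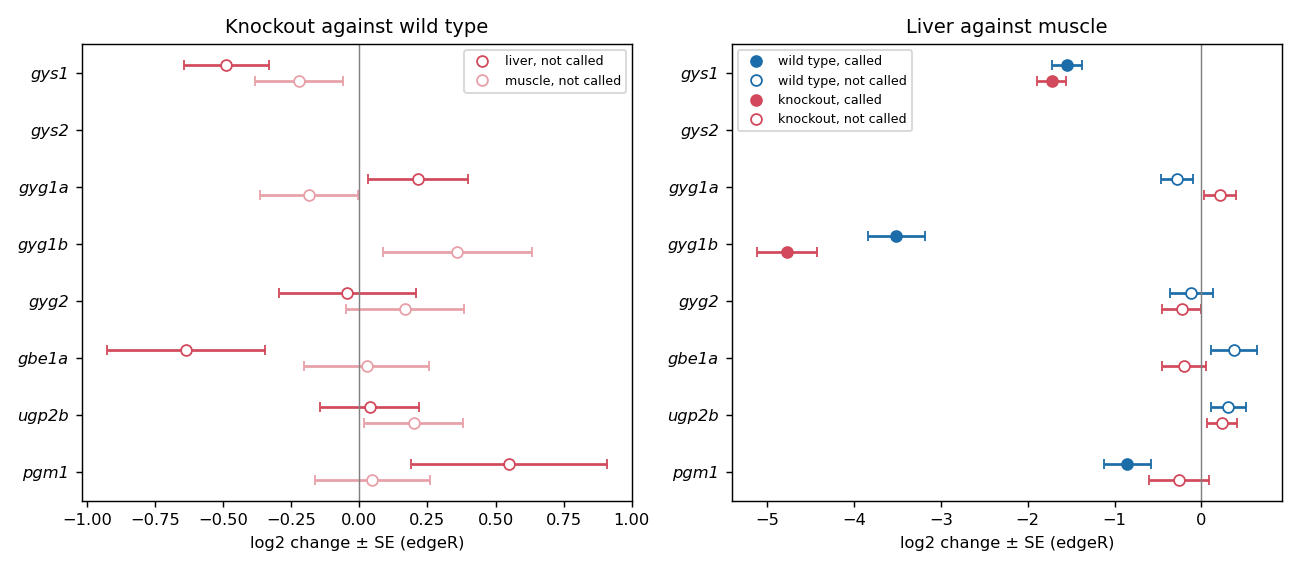
Log2 changes ± SE from edgeR for each gene, for knockout against wild type within liver and muscle (left) and for liver against muscle within each genotype (right). Filled points passed an adjusted p of 0.05, which gys1 and gyg1b did between tissues in both genotypes and pgm1 in wild type. Too few counts kept gys2 out of these fits and gyg1b out of the liver fit, and they have no point there.

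An interaction term over all 32 libraries asked whether the knockout difference was unlike in the 2 tissues. In that fit every one of the 8 members passed the filter, gys2 mostly through wild-type livers and gyg1b mostly through muscle. Both rested on few counts in the other groups, so the gys2 term is not separate support for its liver difference. The estimate for gys2 was -3.39 ± 0.85, with an edgeR adjusted p of 0.0655. It was called by limma-voom (-4.07, adjusted p = 0.0180) and without the count filter (-3.29, edgeR adjusted p = 0.0477). With wild-type muscle 5 or 6 or knockout liver 7 left out it was also called (edgeR adjusted p = 0.0337, 0.0428 and 0.0499). Those fits called 27 of 13883, 29 of 13874 and 46 of 13937 genes. Over the alternatives the adjusted p of gys2 ran from 0.00369 to 0.134, and DESeq2 gave it none. Next came gyg1b at -1.20 ± 0.51 and gyg1a at 0.56 ± 0.26 (edgeR adjusted p = 0.212 and 0.241), opposite in sign. For gys1 the interaction was -0.11 ± 0.22 (adjusted p = 0.817), and edgeR called 0 of 8 members, beside 0.211% of 13725 genes, with 3 at an unadjusted p under 0.05, which 18.3% of genes reached. DESeq2 called 0 of 7 members (1.81% of genes), limma-voom 1 of 8 (3.77%) and edgeR without a filter 1 of 8 (0.354%). Scaled to library totals, gys1, gys2, gyg1b and gbe1a were called (24.2% of genes). In that setting the median interaction of all genes was -0.69, and 3302 of the 3324 genes called were negative.

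One ratio that needs no scaling was added after seeing the data. For each gyg1a count, wild-type livers had from 0.8 to 1.5 gys1 counts (median 1.22) and knockout livers from 0.485 to 1.11 (median 0.730). Wild-type and knockout muscle had medians of 2.75 and 2.86. The liver ranges overlap, and no test was made.

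The rest of the pathway was taken from 7 lists with 83 symbols, of which 73 were in the table. In liver edgeR called 0 of 41 tested genes between the genotypes, beside 0.0742% of all genes. At an unadjusted p under 0.05 there were 13 of the 41, beside 22.4% of all genes (26 positive, 15 negative; median 0.28 against -0.02 over all genes). In muscle it called 0 of 55, beside 0% of all genes (3 at an unadjusted p under 0.05, beside 4.74%; median -0.03). Among the other genes of UDP-glucose supply and branching, the branching enzyme paralogue gbe1b had a mean of at most 2.98 CPM in any group, and the second pyrophosphorylase, ugp2a, had means of 3.64 ± 2.48 (wild type) and 6.57 ± 3.39 CPM (knockout) in liver. For ugp2a, liver exceeded muscle in knockout by 1.42 ± 0.41 (edgeR adjusted p = 0.00663), in a fit that called 43.4% of all genes, 21.2% higher. Between wild-type tissues edgeR called 0 of 2 tested genes of this list, beside 33.9% of all genes. Between liver genotypes it also called 0 of 2, beside 0.0742%.

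Between the tissues in wild type, 23 of 45 listed genes were called, 10 higher and 13 lower in liver, where 33.9% of all genes tested were called, 15% higher and 18.9% lower. The counts of the single lists below stand beside these same shares. Of 5 tested glycogen-targeting subunits of protein phosphatase 1, which bring the phosphatase that activates synthase to glycogen, 3 were lower in liver and 1 was higher. The most different was ppp1r3aa, at 29.4 ± 6.45 CPM in muscle and 0.695 ± 0.686 CPM in liver (-5.44 ± 0.36; edgeR adjusted p = 6.01e-13). Of 9 breakdown genes 5 were lower and 1 was higher in liver, with the phosphorylases pygma (-4.79 ± 0.33, edgeR adjusted p = 7.83e-12) and pygl (4.56 ± 0.46, edgeR adjusted p = 1.71e-07) on opposite sides. The corresponding differences in knockout were -4.23 for pygma and 5.67 for pygl. Among 16 synthase kinase and phosphatase genes 2 were lower in liver, and among 6 other users of UDP-glucose 4 were higher and 1 was lower, with ugdh, which makes UDP-glucuronate, at 2.24 ± 0.28 (edgeR adjusted p = 1.86e-07).

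Of 7 tested genes for glucose entry, phosphorylation and release, 4 were higher and 2 lower in wild-type liver. They included the transporter slc2a2 (3.56 ± 0.34) and the glucose-6-phosphatase g6pca.2 (3.03 ± 0.32), both higher, and the hexokinase hk1, which was lower (-1.99 ± 0.28; edgeR adjusted p at most 9.09e-07 for these 3). In knockout 30 of 54 listed genes were called between the tissues, 17 higher and 13 lower in liver, beside 43.4% of all genes called, 21.2% higher and 22.2% lower. No listed gene was called for the interaction (0 of 59 by edgeR, beside 0.211% of all genes). At an unadjusted p under 0.05 there were 17 of the 59, beside 18.3% of all genes.

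Libraries of 1 group differed from each other by more than counting error for most members. The coefficient of variation of pgm1 was 60.5% in wild-type and 85.3% in knockout liver, where counting error alone gives 8.53% and 4.28%. For gys1 it was 13.4% and 11.98% in the livers, against 10.3% and 8.42% from counting, and 19.5% and 14.6% in muscle, against 4.13% and 4.65%. The spread of gys2 in wild-type liver was 62.0%, 2.79 times its counting error. That of gyg1b in knockout muscle was 57.6%, 6.47 times its counting error, and in knockout liver it was 41.3%, below the 47.0% that its few counts give.

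Knockout muscle 7 was highest of its group in gyg1b (82.2 CPM), gys1 (167 CPM) and pgm1 (288 CPM). Knockout muscle 8 was lowest of its group in gys1 (104 CPM), gbe1a (4.17 CPM) and gyg2 (7.21 CPM) and highest in gyg1a (74.7 CPM). Without knockout muscle 8, gyg1a in knockout passed as higher in liver than in muscle, at 0.45 (edgeR adjusted p = 0.0426, in a range of 0.00482 to 0.580 over the alternatives). That fit called 5032 of 12053 genes, 2948 of them higher in liver.

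The genes whose pattern over the 32 libraries was nearest to that of a member were found by the root mean square difference of log2(CPM + 0.5), each gene centred on its own mean, among genes with a mean of at least 20 CPM. For gys1 these were pdlim5a, a muscle PDZ and LIM protein (0.31), myot, the Z-disc protein myotilin (0.33), and phkg1a, a catalytic subunit of phosphorylase kinase (0.34), where the median over 3764 genes was 0.94. The gene pdlim5a stood at 335 ± 72.5 CPM in wild-type muscle, 287 ± 50.5 in knockout muscle, 136 ± 16.2 in wild-type liver and 113 ± 12.2 in knockout liver. Nearest to ugp2b were zgc:123105 (0.22), TULP1 (0.27) and si:ch211-59p23.1 (0.29), and nearest to gyg1a were zgc:152652 (0.27), siva1 (0.29) and zgc:173544 (0.31). For pgm1 the nearest were hnrnpdl (0.41), ndufc2 (0.41) and lgals3a (0.42), with a median of 0.92 over all genes. These distances are descriptions and share the depth and scaling of the libraries.

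**Figure D5:**
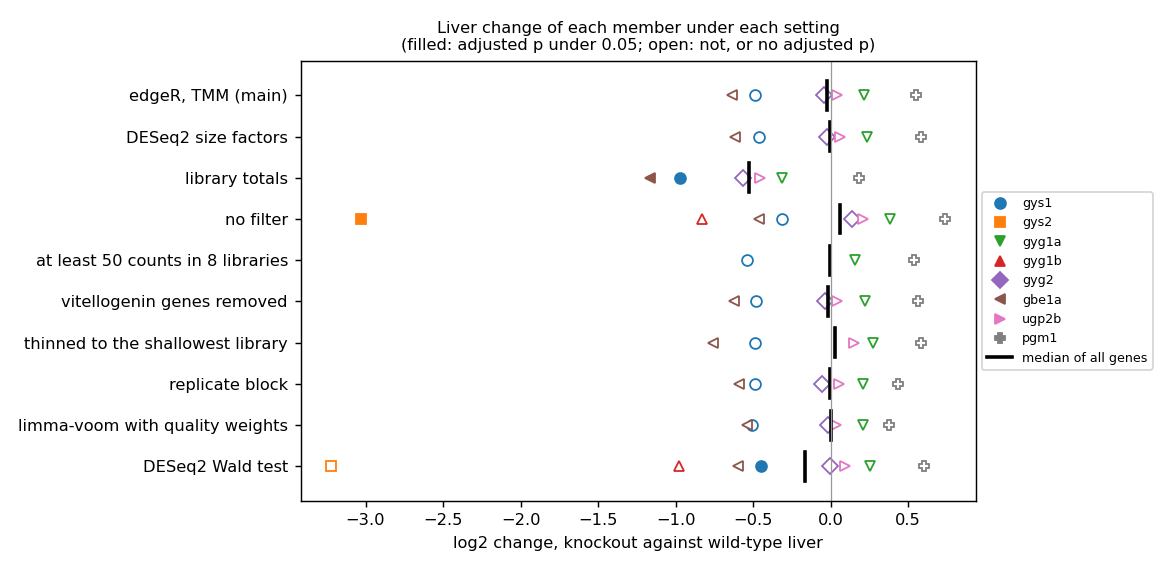
Log2 change of each gene between knockout and wild-type liver in the fit reported and under 9 other settings, with the median of all genes in each as a black bar. Filled points have an adjusted p under 0.05. gys1 and gbe1a stayed below the median of all genes in each setting that tested them and pgm1 above it, and scaling to library totals moved that median to -0.53.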

How the data were processed

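The authors deposited raw whole-number counts per gene symbol, 1 column per library and not normalized. The submitters' processing notes list, with no role or order, Salmon 1.10.2, fastp 0.23.4, BWA 0.7.17-r1188 and GRCz11. The sources used here do not give the annotation release, the use of strand or molecular identifiers, or whether the counts are rounded estimates. PCR products without molecular identifiers are not independent molecules, so intervals cover counting error only.

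Members and lists were chosen with earlier results of these data known. All genes were fitted per contrast in R 4.3.3 with edgeR 4.0.16 (robust quasi-likelihood, TMM, and filterByExpr with defaults of 10 counts and a total of 15). A call was a Benjamini-Hochberg adjusted p below 0.05. Genotype was the only term within a tissue, tissue within a genotype, and the interaction used 4 group means. SE is the log2 change over the root of F. Members left out by the filter were compared by exact permutation of 8 against 8 libraries, two-sided. Alternatives used DESeq2 1.42.0, limma 3.58.1, other scalings and filters, thinned counts, a block and left-out libraries. The edgeR step was run on simulated counts of genes that passed the filter. The changes planted there were larger than the edgeR genotype changes of the tested members. That run therefore does not cover changes of this size or members that the filter left out. Named were the members, up to 3 genes of smallest p per list and the 3 nearest genes of each member with a mean of at least 20 CPM.

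Tissue contrasts treat libraries as independent. No 2 libraries of a group were alike within sampling noise (chi-square per degree of freedom at least 5.10). RefSeq's gene table holds 8 of 8 member symbols on another assembly, so no coordinates are given.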

Additional observations from a re-analysis of the deposited data

Results flagged for a closer look

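Of the 32 sets of 8 libraries (8 genes in 4 groups), 1 held a library far from the others. In knockout liver 1 pgm1 stood at 399 CPM and the next knockout liver at 142 CPM, a gap above Dixon's 95% critical value for the share of the range. Chance gives about 1 such case in 20 sets. Knockout liver 1 was also the highest of its group in the hepatocyte marker sum, at 136070 CPM, with the next at 68208 CPM. It was highest in the cholangiocyte and exocrine pancreas sums too (1612 and 4175 CPM) and lowest in the skeletal muscle sum (1903 CPM). A link of these sums to pgm1 was not tested.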

How the results depend on the processing

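The number of members called between liver genotypes was 0 and became 1 with DESeq2 (gys1), 1 without a filter (gys2) and 2 with library totals (gys1, gbe1a), and ran from 0 to 1 as each liver was left out. Between knockout tissues it was 2 and became 7 with library totals, where the median of all genes was -1.02, and 3 in thinned counts (gbe1a, -0.69), and ran from 2 to 3 as each library was left out. For the interaction it was 0 and became 1 with limma-voom or no filter. It became 4 with library totals, where the median of all genes was -0.69, and ran from 0 to 1 as each library was left out. Counts for muscle genotypes (0 throughout) and wild-type tissues (3 or 4) kept within 1.5 times. The gys2 level and share in liver passed in every setting run, with ranges of -2.86 to -2.43 (log2) and -16.0 to -12.6 points as each liver was left out.

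Of 304 single-gene values under settings that keep all libraries or leave out a chosen pair, 272 kept direction and call, 13 became calls in the same direction and 19 turned sign, of which 2 became calls (gyg1a and ugp2b between knockout tissues). With library totals the values that turned sign were gyg1a (-0.31) and ugp2b (-0.46) between liver genotypes, gyg1a (-0.66) and ugp2b (-0.65) between knockout tissues, and gyg1a (-0.25) and ugp2b (-0.79) for the interaction. With library totals the median of all genes was -0.53 between liver genotypes, -1.02 between knockout tissues and -0.69 for the interaction. After subtracting the median of its setting, gyg1a stood at 0.22, 0.36 and 0.45, against 0.24, 0.36 and 0.45 in the fits reported. In the same way ugp2b stood at 0.071, 0.37 and -0.095, against 0.063, 0.39 and -0.11. The other values that turned sign were near 0. For gyg2 they were 0.14 without a filter and 0.049 without wild-type liver 5 and knockout liver 1 between liver genotypes, 0.032 in thinned counts between wild-type tissues and 0.047 without a filter for the interaction. For ugp2b they were -0.018 without the same 2 livers between liver genotypes, and for the interaction -0.0097 with DESeq2, -0.028 with limma-voom, -0.024 with DESeq2 size factors, -0.017 with 50 counts in 8 libraries and -0.0058 in thinned counts. For pgm1 between muscle genotypes they were -0.094 with limma-voom, -0.0070 in thinned counts and -0.013 with the block. The cause was not tested. As each library was left out, signs turned for gyg2 in liver (-0.10 to 0.085), gbe1a (-0.031 to 0.12) and pgm1 (-0.16 to 0.15) in muscle, and gyg2 (-0.16 to 0.056) and ugp2b (-0.10 to 0.061) for the interaction.

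With the replicate block 0 members were called between genotypes, 3 and 2 between tissues and 0 for the interaction, so it changed no call. Same-numbered libraries correlated at -0.28 to 0.42 between liver genotypes, 0.01 to 0.80 between muscle genotypes, -0.26 to 0.14 and -0.23 to 0.20 between tissues, so the numbers were not taken as pairs. In muscle 5 of 8 libraries correlated best with their own number, a hint from the data and not the design. Depth limits gys2 outside wild-type liver and gyg1b in liver, which rest on at most 19 and 13 counts a library.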
